A study of Mus musculus with 2 samples.

Results

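The apolipoprotein genes Apoe, Apoc1, Apoc2, Apoc4, Apod, Apoa1 and Apoa2 were followed across the cells of prostate tumours from mice of 2 genotypes. These 7 genes matched 8 of the 28000 feature rows, because 2 rows carried the name Apoc2. The list was drawn up around a rise of Apoc4 in TripleTg epithelium that had been seen in these same counts, so the members were selected on measured values of the TripleTg against DoubleTg contrast. Their ratios between the genotypes are therefore a description and carry no test. There was 1 library per genotype, which also leaves every difference without a replicate check.

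DoubleTg mice (hHGFtg-hMETtg-PBCre) carried hHGFtg, which makes human HGF throughout the animal, and hMETtg, a human MET gene at the H11 locus that stays silent until Cre acts on it. Cre was driven by a probasin promoter (PBCre4), which acts in prostate epithelium. TripleTg mice (hHGFtg-hMETtg-Ctnnb1-PBCre) carried in addition a Ctnnb1 allele with a floxed exon 3, whose removal leaves a stabilised β-catenin. Tags from the 3′ end of transcripts do not reach that exon, so the counts cannot check the deletion. Both genotypes were kept on a mixed C57BL/6 and C3H SCID background. The labels call the DoubleTg tissue prostatic adenocarcinoma and the TripleTg tissue prostatic carcinoma. The age of the mice and the number of mice behind each library are not given in the sources used here, and the libraries came from different littermates, so genotype, animal and library cannot be told apart.

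Apolipoproteins are the protein part of lipoprotein particles, which carry cholesterol and triglycerides between cells. Apoe is the ligand that lets such particles bind their receptors on cells, and macrophages, glia and liver make much of it. The small Apoc proteins exchange between particles, where Apoc2 is the cofactor of lipoprotein lipase and Apoc1 slows particle uptake. Apoc4 is mainly a liver gene. Apoa1 and Apoa2 are the main proteins of high-density lipoprotein and come from liver and gut, whereas Apod is a lipocalin that fibroblasts and other stromal cells secrete.

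Apoe, Apoc1, Apoc4 and Apoc2 stand in a row on the minus strand of chromosome 7. In the GENCODE vM21 annotation of mm10, Apoe spans chr7:19696109-19699188, Apoc1 chr7:19689481-19692660, Apoc4 chr7:19678083-19681479 and Apoc2 chr7:19671579-19677941, all protein-coding. The other members lie on other chromosomes, Apod at chr16:31296192-31314808, Apoa1 at chr9:46228580-46230466 and Apoa2 at chr1:171225054-171226379. The start of Apoc4 lies 3538 bases upstream of the start of Apoc2, and the starts of Apoc1 and Apoe lie 11181 and 17709 bases upstream of that of Apoc4. The bases just before the starts of Apoc4 and Apoe, neighbours whose levels varied differently between the genotypes, are shown from RefSeq (GRCm38.p6, minus strand, 5′ to 3′), Apoc4 as chr7:19681480-19681710 and Apoe as chr7:19699189-19699438. The Apoc4 stretch is shorter because bases inside its GENCODE transcript were left off. Capitals mark a match on either strand to the TCF/LEF motifs CTTTGAT and CTTTGAA or to the nuclear receptor core motif AGGTCA.
Apoc4: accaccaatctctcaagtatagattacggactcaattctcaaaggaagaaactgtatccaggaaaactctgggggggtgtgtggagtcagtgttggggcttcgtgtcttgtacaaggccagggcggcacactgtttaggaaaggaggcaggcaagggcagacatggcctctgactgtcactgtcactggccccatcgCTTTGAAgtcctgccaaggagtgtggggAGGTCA
Apoe: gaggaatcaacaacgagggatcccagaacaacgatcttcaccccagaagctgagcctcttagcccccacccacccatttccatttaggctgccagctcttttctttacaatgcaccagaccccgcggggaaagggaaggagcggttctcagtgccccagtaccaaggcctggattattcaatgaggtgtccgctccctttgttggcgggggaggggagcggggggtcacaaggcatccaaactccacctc

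The Apoc4 stretch held CTTTGAA beginning at position -53 and AGGTCA beginning at position -25, counted from the RefSeq start, and the 2 matches do not overlap. CTTTGAA occurs on either strand in 4.46% of the 32851 RefSeq promoters taken over the same 250 bases, CTTTGAT in 3.21%, either of them in 7.48%, and AGGTCA in 14%. The Apoe stretch held none of the 3 motifs. Of the 7 members, 6 had a promoter entry (not Apoc1), and among these the TCF/LEF motifs were found before Apoc4 alone. AGGTCA was also present before Apoc2 at position -115 and before 1 of 2 starts of Apoa2 at position -238. A match describes letters in the window and was not tested as a binding site.

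A UMI (unique molecular identifier) marks 1 captured RNA molecule. After cells with at most 200 or at least 7000 genes, or at least 15% mitochondrial UMIs, were left out, the DoubleTg library held 10598 of 12072 cells with a median of 16761 UMIs, and the TripleTg library held all 9492 cells with a median of 20097 UMIs. The deposited TripleTg matrix thus held no cell past these limits, and the DoubleTg matrix did. With the same limits the study reported fewer kept DoubleTg cells and the same number of kept TripleTg cells. The libraries shared 30 cell barcodes, 29 of them among kept cells. Clustering without any apolipoprotein gene gave 26 clusters in each library, and marker genes named 7050 DoubleTg and 6596 TripleTg cells epithelial-like. These comprised 5029 and 4740 luminal-like, 1845 and 1182 basal-like, 126 and 561 seminal vesicle-like and 50 and 113 other epithelial-like cells. Macrophage-like cells numbered 283 and 434 and fibroblast-like cells 717 and 641, while 1635 and 1410 cells stayed unnamed, mostly at low depth. Levels below are CPM, the gene's UMIs per 1000000 UMIs of the summed cells, and brackets give 95% intervals that cover counting error only. In such sums, more cells with a transcript and more transcript per cell cannot be told apart, so shares of cells are given beside them.

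Apoc4 was at the edge of detection in DoubleTg and was detected in most luminal-like cells in TripleTg. In luminal-like cells it stood at 0.0402 CPM (0.0174 to 0.0793; 8 UMIs) in DoubleTg and at 116 CPM (115 to 118; 16958 UMIs) in TripleTg, a log2 ratio of 11.50 (10.52 to 12.71). At least 1 UMI was found in 8 of 5029 DoubleTg and 3207 of 4740 TripleTg luminal-like cells. All 10 DoubleTg luminal-like clusters were at or below 0.258 CPM, and all 8 TripleTg luminal-like clusters were between 53.5 and 226 CPM, so the 2 sets of clusters did not overlap. Of the 9053 genes tested in luminal-like cells, 6.82% had every TripleTg cluster above every DoubleTg cluster and 6.74% every one below, and nothing is read from this for genes chosen on the contrast. With every cell thinned to 5000 UMIs, to remove the effect of depth, 0.0413% of 4837 DoubleTg and 34.9% (33.5 to 36.2) of 4611 TripleTg luminal-like cells kept an Apoc4 UMI. The same shares before thinning were 0.159% and 67.7%, and 192 DoubleTg and 129 TripleTg luminal-like cells were too shallow to thin. At that depth 21.8% of TripleTg luminal-like cells held 1 Apoc4 UMI, 7.55% held 2 and 5.53% held 3 or more, with a maximum of 9. The 5 richest cells held 1.17% of all TripleTg luminal-like Apoc4 UMIs, so the level was spread over many cells.

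**Figure D1:**
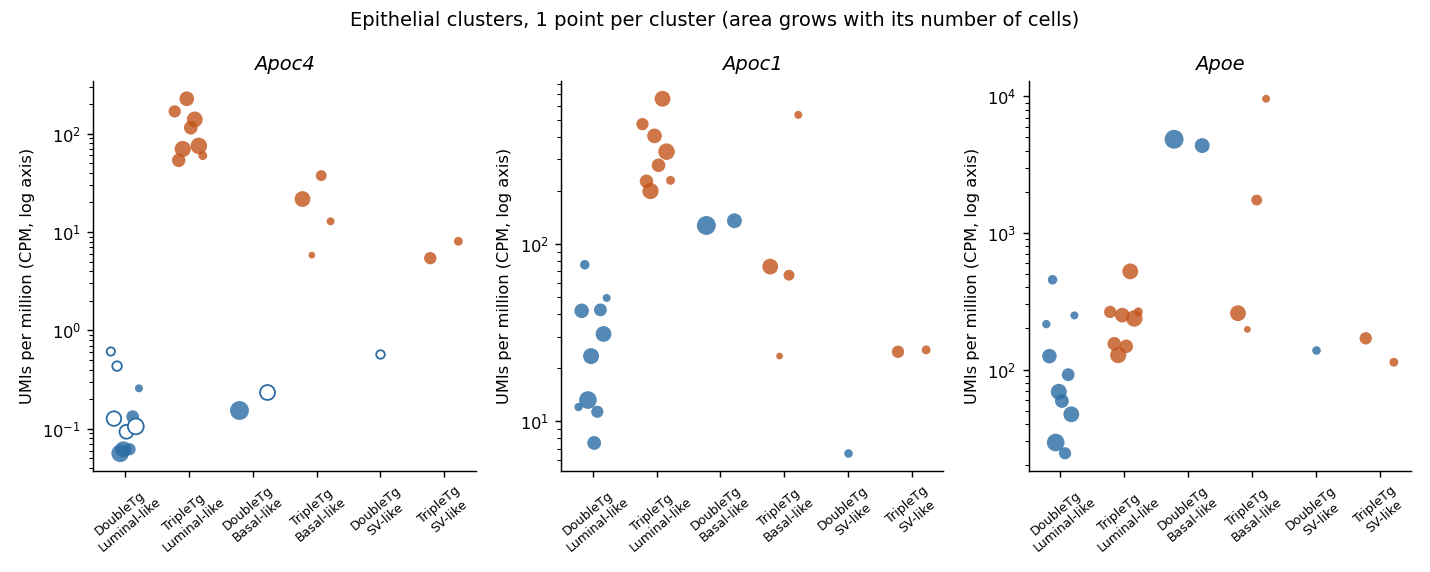
CPM (log axis) of Apoc4, Apoc1 and Apoe in each luminal-like, basal-like or SV-like (seminal vesicle) cluster, 1 point per cluster, DoubleTg in blue and TripleTg in orange; open points mark clusters without a UMI, drawn at the value of 3 UMIs. Apoc4 separates the genotypes in every type, while Apoe is high in both DoubleTg basal-like clusters and spreads from 197 to 9604.5 CPM over the 4 TripleTg basal-like clusters. The part of free RNA in the basal-like and SV-like Apoc4 was not tested.

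Within TripleTg the luminal-like clusters differed in Apoc4. The cluster led by Lypd2, Gm15308 and Gm21002 (650 cells) was highest at 226 CPM. A cycling cluster led by Ube2c and Top2a (412 cells) followed at 168 CPM, then a cluster led by Coch, Pnliprp1 and Tgm4 (778 cells) at 139 CPM and one led by Tchh and Fabp4 (537 cells) at 115 CPM. The remaining 4, led by Tff3, Fam213a, Ifit1 and Rnase1, stood at 75.0, 69.7, 59.7 and 53.5 CPM. Across these 8 clusters the log2 level of Apoc4 had r = 0.77 with Apoc1 and 0.44 with Apoe. With the Wnt output genes Notum, Lef1 and Axin2 it had r = 0.72, 0.50 and 0.26, with the cycling gene Mki67 0.45, with Pbsn 0.02, and with Apoa1 and Alb -0.67 and -0.53. These correlations describe 8 clusters of 1 library. Over all 52 clusters of both libraries, r was 0.79 with Apoc1, 0.07 with Apoe, 0.87 with Apoa1, 0.88 with Alb and -0.78 with Pbsn, values that also hold the difference between the libraries.

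Outside luminal-like cells Apoc4 was lower in each named TripleTg class but was absent from none. It stood at 25.4 CPM (23.5 to 27.3) in basal-like, 6.16 (5.25 to 7.18) in seminal vesicle-like, 22.0 (18.2 to 26.4) in macrophage-like, 34.7 (192 UMIs) in fibroblast-like and 32.2 (25.6 to 39.9) in endothelial-like cells. In DoubleTg the same classes held 2, 0, 2, 0 and 0 Apoc4 UMIs. The log2 ratio was 8.35 (6.49 to 11.40) in basal-like and 5.17 (3.29 to 8.24) in macrophage-like cells. Against a floor of 3 UMIs in the DoubleTg class, it was at least 6.42 in fibroblast-like, 4.58 in endothelial-like and 3.41 in seminal vesicle-like cells. Of the 192 Apoc4 UMIs of TripleTg fibroblast-like cells, 172 lay in a shallow cluster at 47.4 CPM, and without it the other 20 UMIs, at 10.5 CPM, gave at least 4.70, an alternative chosen after seeing the data. Thinned to 5000 UMIs per cell, the fibroblast-like bound was 4.25. Thinned shares of TripleTg cells with an Apoc4 UMI were 7.64% in basal-like, 7.51% in macrophage-like, 8.61% in fibroblast-like and 3.08% in seminal vesicle-like cells, against the 34.9% of luminal-like cells, so the luminal share lay above that of each of these classes. Median depths before thinning were 25735 UMIs in luminal-like and 10051 UMIs in macrophage-like cells. Unnamed cells had a share of 29.7%. Per 100 Apoc1 UMIs, Apoc4 had 32.5 UMIs in luminal-like, 30.4 in basal-like, 34.6 in macrophage-like, 28.3 in fibroblast-like and 24.9 in seminal vesicle-like TripleTg cells, while their Apoc4 levels differed several times over. The ratio was 49.7 in endothelial-like (83 Apoc4 UMIs) and 17.0 in smooth muscle-like cells (27 UMIs). Clusters within a class differed more. Basal-like clusters of 88 and 294 cells held 10 and 297 Apoc4 UMIs beside 416 and 528 Apoc1 UMIs. Luminal-like clusters led by Coch and by Lypd2 held 2859 and 4502 Apoc4 UMIs beside 13517 and 8104 Apoc1 UMIs. Krt8, an epithelial keratin, stood at 220 CPM in DoubleTg and 622 CPM in TripleTg macrophage-like cells. The part of free RNA from luminal-like cells in the Apoc4 of macrophage-like, basal-like and the other classes was not tested. Luminal-like cells held 87.2% of the 19439 Apoc4 UMIs of the TripleTg library, unnamed cells 5.85%, basal-like cells 3.66%, fibroblast-like cells 0.988% and macrophage-like cells 0.597%.

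**Figure D2:**
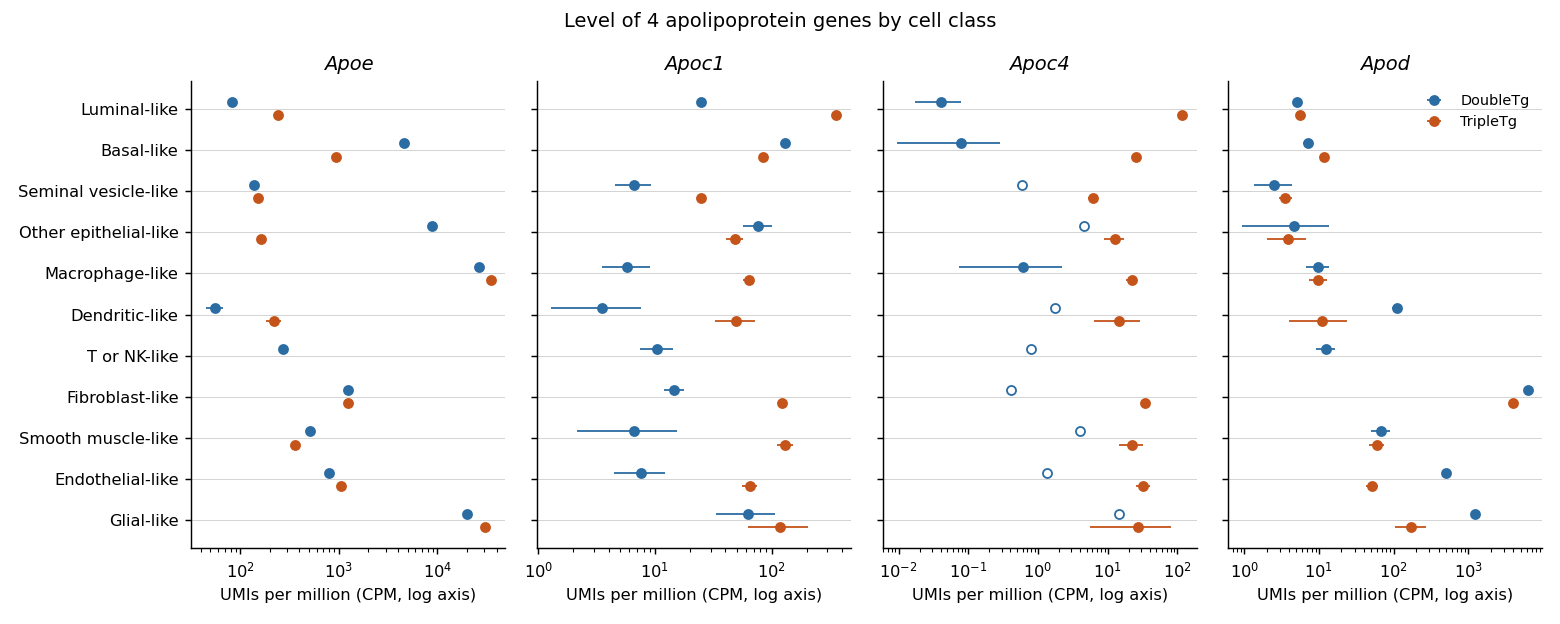
CPM (log axis) of Apoe, Apoc1, Apoc4 and Apod in each cell class of DoubleTg (blue) and TripleTg (orange), with 95% Poisson intervals for counting error; open points are classes without a UMI, drawn at the value of 3 UMIs, and no TripleTg cluster was named T or NK-like. Apoe peaks in macrophage-like and glial-like cells and Apod in fibroblast-like cells of both genotypes, and Apoc4 peaks in TripleTg luminal-like cells at 116 CPM.

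Apoc1 was at a higher CPM in TripleTg luminal-like cells and at a lower CPM in TripleTg basal-like cells. In luminal-like cells it stood at 24.8 CPM (24.1 to 25.5) in DoubleTg and 358 CPM (355 to 361) in TripleTg, a log2 ratio of 3.85 (3.81 to 3.90). In DoubleTg its luminal-like clusters ran from 7.53 to 76.2 CPM and in TripleTg from 199 to 659 CPM, also without overlap (6.82% of genes). Thinned shares of luminal-like cells with an Apoc1 UMI were 7.28% and 62.2%. In basal-like cells the order was the other way, 131 CPM (127 to 135) in DoubleTg and 83.4 CPM (80.0 to 86.8) in TripleTg, a log2 ratio of -0.65 (-0.73 to -0.57). Thinned shares of basal-like cells with an Apoc1 UMI were 25.0% (23.0 to 27.1) and 22.3% (19.9 to 24.9), with intervals that overlap. Before thinning they were 35.1% in DoubleTg and 47.9% in TripleTg. The 4 TripleTg basal-like clusters were not alike. The clusters of 777, 294 and 23 cells stood at 74.4, 66.5 and 23.3 CPM, below both DoubleTg clusters (127 and 135 CPM), and the cluster of 88 cells led by Clca3a2 and Adm stood at 534 CPM.

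Apoe was mainly a basal-like gene within DoubleTg epithelium and that contrast was smaller in TripleTg. Basal-like cells held 4610 CPM in DoubleTg and 935 CPM (924 to 946) in TripleTg, a log2 ratio of -2.30 (-2.32 to -2.28). Both DoubleTg basal-like clusters were high, at 4852 and 4363 CPM, and 98.4% of thinned cells had an Apoe UMI with a median of 19. In TripleTg the main basal-like cluster of 777 cells stood at 258 CPM and a cycling one of 23 cells at 197 CPM. A cluster of 294 cells led by Mt4, Igfbp2 and Ptn stood at 1740.3 CPM, and the cluster of 88 cells led by Clca3a2 at 9604.5 CPM. The DoubleTg cluster of 50 cells led by Atp6v1g3 and Foxi1, genes of ionocyte-type epithelium, was also high at 8901 CPM. In luminal-like cells Apoe was lower in both genotypes and higher in TripleTg, 82.4 CPM (81.1 to 83.7) against 243 CPM (240.2 to 245), a log2 ratio of 1.56 (1.53 to 1.59). The luminal-like clusters overlapped, from 24.4 to 454 CPM in DoubleTg and from 128 to 523 CPM in TripleTg.

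Apoe was present in every TripleTg class. The lowest named TripleTg cluster was a seminal vesicle-like one at 113 CPM, whereas the lowest DoubleTg one was luminal-like at 24.4 CPM. Dendritic-like cells stood at 55.1 CPM in DoubleTg and 219 CPM in TripleTg, a log2 ratio of 1.99 (1.59 to 2.39), and seminal vesicle-like cells at 139 and 154 CPM. The dendritic ratio, on 94 and 120 UMIs, was above the luminal one of 1.56, while the other non-epithelial classes named in both libraries and seminal vesicle-like cells lay between -0.50 (smooth muscle-like) and 0.63 (glial-like). The part of free RNA in the luminal ratio was not tested. Thinned shares of luminal-like cells with an Apoe UMI were 12.3% and 59.6%, and of dendritic-like cells 16.0% and 61.9%. Summed over all epithelial-like cells, Apoe was lower in TripleTg (614 against 325 CPM, log2 ratio -0.92), a sum in which opposite luminal and basal differences are joined. Thinned cells gave -1.58, and epithelial-like cells with an hMETtg UMI gave the opposite sign, 0.48. The same sum gave Apoc1 a log2 ratio of 2.90 and Apoc4 one of 10.98 (10.10 to 12.04; 10 against 17873 UMIs). Thinned cells gave 2.50 for Apoc1 and 9.53 for Apoc4.

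In luminal-like cells, Apoc1 and Apoe were the other genes near Apoc4 with a log2 ratio above 1. Within 100 kb of the Apoc4 start, luminal log2 ratios were -0.29 for Clptm1, -0.65 for Relb, -0.21 for Clasrp, 0.06 for Tomm40, 0.22 for Nectin2 (Pvrl2 in the counts) and -0.05 for Bcam. In basal-like cells Apoc4 was higher in TripleTg while Apoc1 and Apoe were lower. The TripleTg basal-like Apoc4 level, 25.4 CPM, was near that of macrophage-like (22.0 CPM) and fibroblast-like cells (34.7 CPM). The part of free RNA in it was not tested. Tomm40, whose start lies 33959 bases upstream of that of Apoc4, held 57.6 and 59.9 CPM in luminal-like cells and 139 and 55.7 CPM in basal-like cells. Gm26890 and Gm20512 were under 1 CPM in luminal-like cells of both genotypes and Gm26600 had at most a single UMI there, while Gm45114 had no feature row. Among the genes upstream of Apoc4, the luminal log2 ratio was 3.85 at Apoc1, 1.56 at Apoe and 0.06 at Tomm40.

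**Figure D3:**
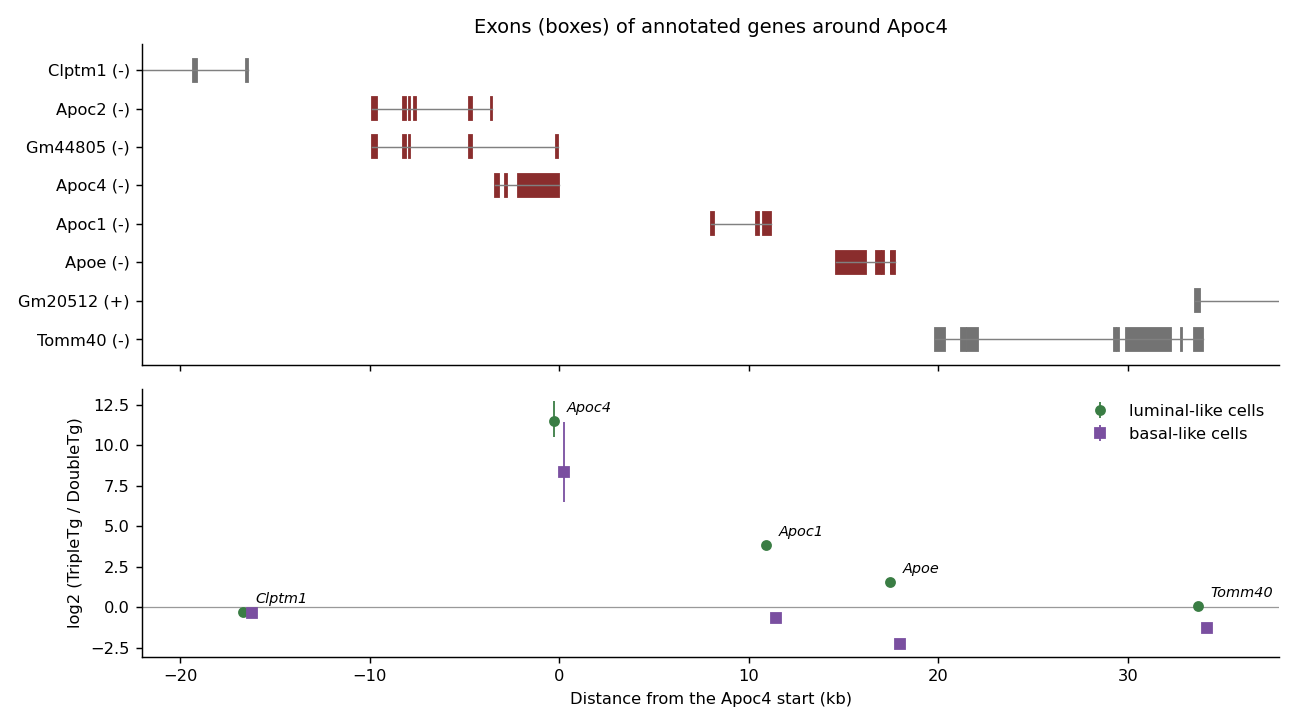
Upper panel, exons (boxes) of annotated genes by distance from the Apoc4 start in kb, with the strand in brackets; lower panel, log2 ratio of TripleTg over DoubleTg CPM at each gene's start in luminal-like (circles) and basal-like (squares) cells with 95% counting intervals. Apoc4 is far above 0 in both cell types, and Apoc1 and Apoe are above 0 in luminal-like and below 0 in basal-like cells. The part of free RNA in the basal-like Apoc4 was not tested.

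Apoc2 could not be read in these counts. Its own row held 0 UMIs in DoubleTg and 5 in TripleTg, and the second row of that name 0 and 1. That second row is the annotated gene Gm44805 (ENSMUSG00000109350), which runs from the first part of Apoc4 through Apoc2 at chr7:19671584-19681423. In GENCODE vM21 it shares 646 of the 813 exonic bases of Apoc2 (79.5%), and all 765 of its own exonic bases lie in Apoc2 or Apoc4. Reads in bases that 2 genes share are not counted for either by Cell Ranger. Macrophage-like cells, a known source of Apoc2, held 0 and 2 UMIs, and the part of the shared exons in that was not tested. For Apoc4 only 119 of 2537 exonic bases (4.69%) are shared, and for Apoc1 and Apoe none. No level of Apoc2 is therefore given.

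Cells with Apoc4 also tended to hold its neighbours. Among TripleTg luminal-like cells thinned to 5000 UMIs, 1607 had an Apoc4 UMI and 3004 had none. Apoc1 was found in 70.2% (67.9 to 72.4) of the former and 57.9% (56.1 to 59.7) of the latter, and Apoe in 65.0% (62.6 to 67.3) and 56.7% (54.9 to 58.5). For Apoa1 the shares were 6.78% and 6.59%, with intervals that overlap. In DoubleTg only 2 thinned luminal-like cells had an Apoc4 UMI, so no such split could be read there. The human MET transgene marked few TripleTg cells at this depth, with an hMETtg UMI in 10.6% of luminal-like cells against 68.7% in DoubleTg. Apoc4 stood at 79.6 CPM (68.8 to 91.6) in the 490 TripleTg luminal-like cells with an hMETtg UMI and at 119 CPM (114 to 124) in the 4121 without one, and Apoc1 at 248 and 378 CPM.

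Macrophage-like cells held most of the Apoe UMIs of the TripleTg library. They held 26483 CPM in DoubleTg and 35144 CPM in TripleTg, a log2 ratio of 0.41 (0.40 to 0.42) beside a median of 0.23 over the genes tested in these cells. After TMM scaling, which centres most genes, the ratio was 0.18, and with coarser clusters (Leiden resolution 0.5) it was 0.66. Per thinned cell the median was 105 Apoe UMIs in DoubleTg and 137 in TripleTg. They held 33.4% of the 260160 Apoe UMIs of the DoubleTg library and 67.2% of the 275665 of the TripleTg library, while basal-like cells held 45.5% and 9.52%. Such shares also depend on how many cells of each class were recovered, 283 and 434 macrophage-like and 1845 and 1182 basal-like. In both libraries thinned macrophage-like cells with a UMI of Trem2, a receptor that binds lipids and Apoe, held more Apoe than those without, 35884 against 19143 CPM in DoubleTg and 43546 against 18910 CPM in TripleTg. Cells with a Trem2 UMI numbered 119 of 267 in DoubleTg and 279 of 413 in TripleTg. Splits by 3 other genes did not share 1 direction. With an Mrc1 UMI Apoe was lower in both libraries, and the Il1b split changed direction between them. The Gpnmb split was higher in TripleTg and had overlapping intervals in DoubleTg. Apoe in cells with and without a Gpnmb UMI was 25633 (6 cells) and 26627 CPM in DoubleTg and 44355 and 31372 CPM in TripleTg. By Mrc1 it was 24771 and 26881 CPM in DoubleTg and 34989 and 36002 CPM in TripleTg, and by Il1b 27680 and 21439 CPM and then 33332 and 37850 CPM. The lipid-associated genes Trem2, Gpnmb, Spp1, Cd9, Fabp5 and Lpl were all at a higher CPM in TripleTg macrophage-like cells, from 484 to 675 CPM for Cd9 and from 252 to 3786 CPM for Spp1. Of 4 monocyte markers, Il1b was lower in TripleTg, at 4567 and 1218 CPM, and Plac8 (28.7 and 84.4 CPM), Ccr2 (8.53 and 21.2 CPM) and Ly6c2 (0 and 7.02 CPM) were higher. Of 5 resident markers, Folr2 (27.7 and 8.53 CPM) and Lyve1 (3.96 and 3.41 CPM) were lower, and Mrc1 (87.5 and 162.5 CPM), F13a1 (32 and 49.7 CPM) and Cd163 (5.49 and 6.83 CPM) were higher. Glial-like cells, few in number at 39 and 24, reached Apoe levels of 19982 and 30843 CPM.

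**Figure D4:**
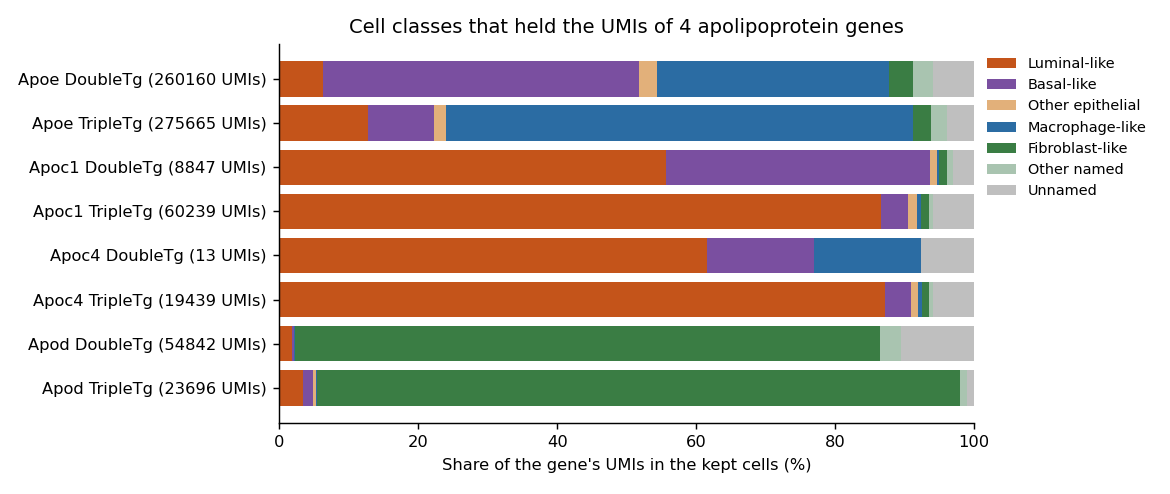
Share (%) of each gene's UMIs in the kept cells that each cell class held, 1 bar per gene and genotype with the gene's UMI total in brackets; the DoubleTg Apoc4 bar rests on 13 UMIs. The basal-like part of Apoe is 45.5% in DoubleTg and 9.52% in TripleTg, and the macrophage-like part 33.4% and 67.2%. These shares also depend on how many cells of each class were recovered.

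Apoc1 in macrophage-like cells was low, 5.79 CPM (3.49 to 9.04; 19 UMIs) in DoubleTg and 63.5 CPM (56.9 to 70.7) in TripleTg. These cells held 0.215% and 0.556% of the Apoc1 UMIs of their libraries. The TripleTg value was close to that of endothelial-like cells (64.7 CPM), and thinned cells with and without a Trem2 UMI stood at 50.2 and 50.7 CPM with overlapping intervals. Fibroblast-like cells held 14.6 and 123 CPM of Apoc1, a log2 ratio of 3.07. Without a shallow TripleTg cluster described with Apod below, it was 1.14 (0.66 to 1.60), the TripleTg clusters being at 170 and 32.1 CPM. Their Apoe stood at 1235 CPM (1210 to 1261) and 1255 CPM (1226 to 1285), a log2 ratio of 0.02 (-0.02 to 0.07) that became -0.04 after TMM scaling and 0.31 with coarser clusters.

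Apod was a fibroblast gene in both genotypes. Fibroblast-like cells held 6249.6 CPM in DoubleTg and 3963 CPM in TripleTg, a log2 ratio of -0.66 (-0.68 to -0.63), and 84.2% and 92.5% of all Apod UMIs. The 5 richest cells held 7.69% of the fibroblast-like Apod UMIs in DoubleTg and 26.5% in TripleTg. The level in TripleTg depended on the cluster. The larger one, 487 cells led by Igfbp6, Gsn and Matn2, held 5247 CPM at a median depth of 4992 UMIs, and the other, 154 cells led by Col3a1, Col1a2 and Mfap5, held 1513 CPM at 10510.5 UMIs. The DoubleTg clusters, led by Tagln and Lum (380 cells) and by Wif1 and Spp1 (337 cells), held 7221 and 5203.5 CPM. Without the shallow TripleTg cluster the log2 ratio was -2.05. That shallow cluster also held Krt8 at 2161 CPM and Apoc4 at 47.4 CPM, against 472 and 10.5 CPM in the other. Epithelial-like cells held Apod at 5.25 and 6.15 CPM, a log2 ratio of 0.23 that became -0.10 in thinned cells. Endothelial-like cells showed 494 CPM in DoubleTg and 51.5 CPM in TripleTg, but 1018 of the 1099 DoubleTg UMIs lay in a single cell, and 184 of 190 did so among DoubleTg dendritic-like cells.

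Apoa1 and Apoa2 were near 0 in DoubleTg and at low levels in every TripleTg class. In luminal-like cells Apoa1 stood at 0.875 CPM in DoubleTg and 11.9 CPM (11.3 to 12.5) in TripleTg, and Apoa2 at 1.05 and 9.79 CPM. Basal-like cells held 0.0779 and 14.6 CPM of Apoa1, macrophage-like cells 0 UMIs and 38.5 CPM, and fibroblast-like cells 0.812 and 24.8 CPM. Other liver genes were also found in each of these classes. Albumin (Alb) stood at 36.5 CPM in luminal-like, 43.7 in basal-like, 109 in macrophage-like and 71.1 in fibroblast-like TripleTg cells, and the fibrinogen gene Fgb at 9.80, 10.4, 25.8 and 17.2 CPM. Per 100 Alb UMIs there were 32.6, 33.3, 35.3 and 34.9 Apoa1 UMIs in these 4 classes, 33.1 in seminal vesicle-like, 29.3 in endothelial-like and 42.4 in unnamed cells. On few Alb UMIs the ratio was 21.9 in smooth muscle-like (73 UMIs) and 19.6 in dendritic-like cells (51 UMIs). Apoc4 had 320, 58.0, 20.2 and 48.9 UMIs per 100 Alb UMIs in the same 4 classes. The ratio of Apoa1 to Alb thus varied less between classes than that of Apoc4 to Alb. The highest Apoa1 level, 230 CPM, was in a shallow unnamed cluster of 721 cells led by haemoglobin genes, together with 524 CPM of Alb and 251 CPM of Fgb. In DoubleTg, Alb was a leading gene of 1 luminal-like cluster (46.8 CPM, 1004 cells), in which Apoa1 was 0.451 CPM.

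**Figure D5:**
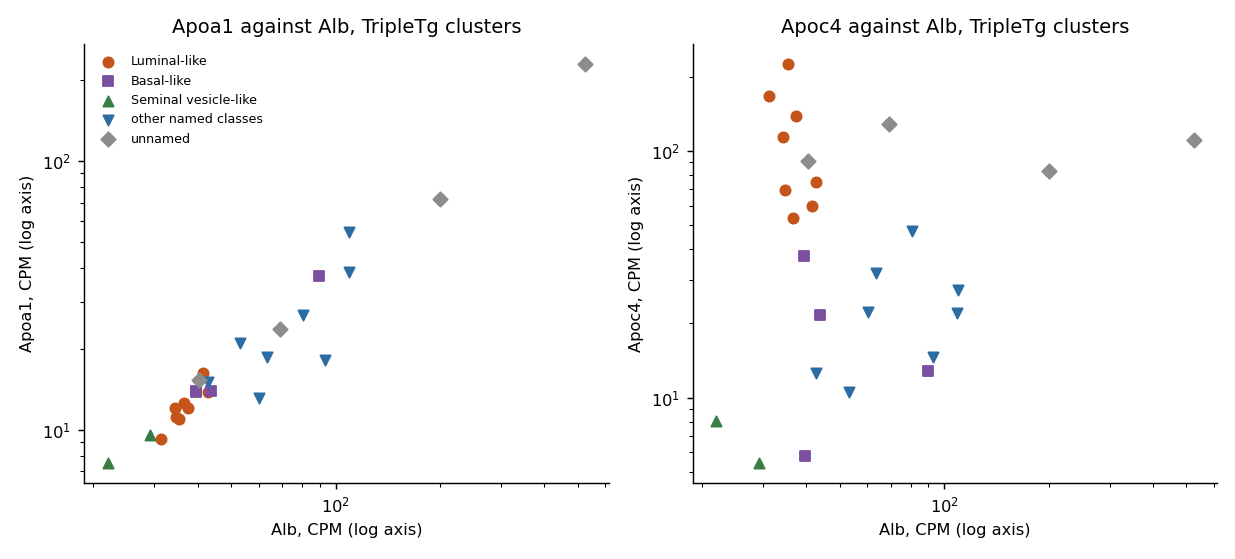
CPM of Apoa1 (left) and Apoc4 (right) against CPM of the liver gene Alb in the 26 TripleTg clusters, log axes, with colour and shape for the cell class. Apoa1 lies along a line with Alb (r = 0.97 on the log2 scale over 26 clusters), and the luminal-like clusters lie above the other named classes in Apoc4 at a similar Alb.

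Of the 8 feature rows, 6 reached 5 CPM in either genotype in epithelial-like cells, and both Apoc2 rows did not. Among these 6, Apoc1, Apoc4, Apoa1 and Apoa2 were at least 4-fold higher in TripleTg, beside 4.91% of all 9102 genes tested, and none was 4-fold lower, beside 3.55%. In luminal-like cells the same 4 passed (5.46% of genes), and 4.57% of genes were 4-fold lower. In basal-like cells Apoc4, Apoa1 and Apoa2 were 4-fold higher (7.1% of genes) and Apoe was 4-fold lower (2.88%). In macrophage-like and fibroblast-like cells Apoc1, Apoc4, Apoa1 and Apoa2 passed (4.26% and 3.76% of genes), and no member was 4-fold lower (1.36% and 1.28%). Without the shallow TripleTg fibroblast-like cluster, Apoc1 no longer passed in fibroblast-like cells. The members were chosen on this contrast, so nothing is read from these counts.

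Of 14 other apolipoproteins and related genes, 6 reached 5 CPM in luminal-like cells, of which 1 was 4-fold higher and 3 were 4-fold lower in TripleTg, with a median log2 ratio of -1.44 beside -0.01 over all genes, of which 5.46% were 4-fold higher and 4.57% lower. Clu, a secreted chaperone also called apolipoprotein J, stood at 21745 CPM in DoubleTg and 4920 CPM in TripleTg luminal-like cells, and Apof, a lipid transfer inhibitor, at 130 and 1.53 CPM. Apobec1, the enzyme that edits the Apob transcript, stood at 24.0 and 0.57 CPM. Apobr, a receptor for Apob-containing particles, was higher in TripleTg, at 1.70 and 48.8 CPM. In basal-like cells Clu stood at 1400 and 1379 CPM, and none of 5 measured genes of this list was 4-fold apart (7.1% of all genes higher and 2.88% lower).

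Among 12 lipoprotein receptors and partners, 8 reached 5 CPM in luminal-like cells and 2 were 4-fold higher in TripleTg (5.46% of all genes), with a median log2 ratio of -0.24. These were Lrp2 (megalin, 0.0302 and 20.6 CPM) and Lrp1 (1.44 and 11.7 CPM), both large endocytic receptors that bind Apoe. The HDL receptor Scarb1 had a log2 ratio of -0.28. In basal-like cells 11 were measured, and Lrp2 (0 and 151 UMIs) and Trem2 (0.389 and 8.16 CPM) were 4-fold higher (7.1% of all genes). In macrophage-like cells none of 9 was 4-fold apart (4.26% of all genes higher and 1.36% lower). Of 14 lipases and remodelling factors only 3 were measured in luminal-like cells, with a median log2 ratio of -0.90. Lipoprotein lipase, Lpl, stood at 15.8 and 44.5 CPM, and Lmf1 and Mylip had log2 ratios of -1.19 and -0.90. In basal-like cells 6 were measured, and Lpl was 4-fold higher (0.701 and 7.09 CPM) and Pltp, which moves phospholipid between particles, 4-fold lower (70.4 and 13.4 CPM), beside 7.1% and 2.88% of all genes.

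The cholesterol efflux and LXR list holds nuclear receptors known to drive Apoe and the Apoc genes in macrophages. In luminal-like cells none of its 10 measured genes was 4-fold apart, beside 5.46% of all genes higher and 4.57% lower. The median log2 ratio of the list was -0.06. The efflux pump Abca1 held 12.6 and 12.4 CPM there and Abcg1 held 9.58 and 12.1 CPM, while Srebf1 and Scd1, both LXR targets, were lower in TripleTg at log2 ratios of -1.33 and -1.62, and Lpcat3, another LXR target, was higher at 1.46. In basal-like cells 1 of 10 was 4-fold higher (7.1% of all genes), Abcg1 at 0.623 and 6.27 CPM, and the median log2 ratio was 0.81. In macrophage-like cells Abca1 stood at 416 and 524.5 CPM and Abcg1 at 129 and 76.2 CPM. Of the liver and gut list, 5 of 8 measured genes were 4-fold higher in luminal-like, 7 of 10 in basal-like, 9 of 10 in macrophage-like and 8 of 10 in fibroblast-like cells, and none was 4-fold lower. The shares of all genes 4-fold higher were 5.46%, 7.1%, 4.26% and 3.76%, and those 4-fold lower 4.57%, 2.88%, 1.36% and 1.28%. The list medians were 3.50, 4.92, 4.09 and 4.88 beside -0.01, -0.08, 0.23 and 0.05 over all genes. Among them, the brush border gene Vil1 stood at 0.785 and 71.1 CPM in luminal-like cells, while the transcription factor Foxa1 had a log2 ratio of -0.91. Of the Wnt output genes, all 6 of Axin2, Lef1, Nkd1, Notum, Apcdd1 and Lgr5 were over 4-fold higher in TripleTg luminal-like cells (5.46% of all genes). All 6 were so in basal-like cells too (7.1% of all genes), and the median log2 ratios were 6.38 and 3.65. In macrophage-like cells 3 of the 6 were measured, all 4-fold higher beside 4.26% of all genes (Axin2 at 1.52 and 11.6 CPM). TripleTg epithelial-like cells held Axin2 at 73.2 CPM, and the part of free epithelial RNA in the macrophage-like values was not tested. In fibroblast-like cells none of the 6 was 4-fold apart (3.76% of all genes higher and 1.28% lower).

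The genes whose level followed that of Apoc4 most closely across all 52 clusters of both libraries were Gm14850, Gm10104, Gm15308, Gm15293 and Defa21, with Pearson r from 0.95 to 0.96 on log2(CPM + 1) among 7157 genes. Defa21 is an alpha-defensin, a family with near-identical copies that can share reads, so the level of a single copy is uncertain. Their summed level was 1.86 CPM in DoubleTg and 3481 CPM in TripleTg luminal-like cells. Apoc1 was followed by Tgfa, Car2 and Ly6d (r = 0.79 to 0.81), Apod by the stromal genes Igfbp6, Lox and Serpinf1 (r = 0.91 to 0.93), and Apoe, less closely, by Tns3, Fads1 and Pmp22 (r = 0.75 to 0.77). Apoa1 was followed by the liver genes Fgb, Akr1c6 and Igfbp1 (r = 0.97 to 0.98) and Apoa2 by Igfbp1, Fabp1 and Ahsg (r = 0.96 for each). Taken over both libraries, these r values also hold the difference between the libraries, on which the members were chosen. Gm14850, for example, stood at 0.0403 CPM in DoubleTg and 322 CPM in TripleTg luminal-like cells. The ranking therefore does not show which genes vary with Apoc4 between the cell types of 1 library. Clusters of 1 library share animal, depth and free RNA, so these values are descriptive. For Apoc2, which had 5 UMIs in all, no likeness is given.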

How the data were processed

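Prostate tumour tissue was dissociated and single-cell 3′ libraries (10x Genomics, v3 chemistry) were sequenced by the authors. The deposited matrices hold raw UMI counts per gene and cell, aligned to mm10 with Cell Ranger 6.0.2 per the submitters' processing notes, while the DoubleTg matrix header names 6.1.1. Differences in version, mapping or cell calling between the libraries cannot be told apart from genotype. Each library was clustered on its own in Scanpy 1.11.5 without apolipoprotein genes (2000 variable genes, 20 components, 15 neighbours, Leiden resolution 1).

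Clusters were named from 110 marker genes, 2 of which had no feature row. A non-epithelial name needed a mean log2 fold of at least 2 over the rest and at least 3 raised markers. Epithelial names needed shares of cells with the markers, and clusters that mixed epithelial and other markers, or were shallow without a leading marker, stayed unnamed. These thresholds were set after the clusters were seen. TripleTg T cells fell in a mixed cluster and have no class of their own. Scrublet marked 2.85% of DoubleTg cells and no TripleTg cell. Its calls were not relied on, and doublets were kept. The study's limit on genes per cell was meant to remove doublets, and the deposited TripleTg matrix lay within it.

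UMIs were summed per class and given as CPM. Intervals are exact Poisson, Clopper-Pearson for shares and conditional binomial for log2 ratios, and cover counting error only. A ratio with 0 UMIs on 1 side was set against a floor of 3 counts. Thinning to 5000 UMIs left out 2171 DoubleTg and 1699 TripleTg cells. Genes entered the 4-fold counts with at least 5 CPM in either genotype, and the likeness ranking with at least 50 CPM in 1 cluster. The members, gene lists and comparisons were chosen with earlier results of these data known. Named genes were the members, those starting within 100 kb of Apoc4, the 5 most like Apoc4, the 3 most like each other member, and the lists. Genes leading a cluster are named only to identify it, and the ratios per 100 UMIs, the UMIs of single cells and the level of Krt8 were added after values were seen. The ratio step was tested on simulated counts. TMM factors came from edgeR 4.0.16.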

Additional observations from a re-analysis of the deposited data

Results flagged for a closer look

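The difference between the genotypes had opposite signs in luminal-like and basal-like cells for Apoe and Apoc1. The log2 ratio of TripleTg over DoubleTg was 1.56 in luminal-like and -2.30 in basal-like cells for Apoe, and 3.85 and -0.65 for Apoc1. With 1 library per genotype the difference between the cell types was not tested. For Apoc1 the basal-like difference was in CPM. Thinned shares of basal-like cells with an Apoc1 UMI, 25.0% in DoubleTg and 22.3% in TripleTg, had overlapping intervals. In the TripleTg basal-like cluster of 88 cells both genes were above the DoubleTg basal-like clusters.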

How the results depend on the processing

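There was 1 library per genotype, so no leave-one-out value exists, and intervals hold counting error only. No paired analysis was possible because there is 1 library per genotype and the result comes from no test. Of 145 values under alternatives, 87 stayed close to the reported value, 49 moved away from it and 9 changed sign. Close means within the counting interval, or within 1.5 times for counts of genes, which have no such interval. These include 3 alternatives chosen after seeing the data, namely leaving out the highest 5% of Scrublet scores, the seminal vesicle-like cells or the shallow TripleTg fibroblast-like cluster. Where a value changed, the cause was not tested.

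The epithelial-like log2 ratio of Apoe, -0.92, changed sign to 1.56 in luminal-like cells only and to 0.48 in hMETtg-positive cells only. It was -2.30 in basal-like cells only, -1.58 thinned to 5000 UMIs, -0.89 with TMM factors, -0.88 with unnamed clusters counted as epithelial-like, -0.70 without limits on genes or mitochondrial UMIs, which changed only DoubleTg, -0.83 without seminal vesicle-like cells, -0.88 without Scrublet doublets and -0.90 without the highest 5% of scores. That of Apoc1, 2.90, was -0.65 in basal-like cells only, 3.85 in luminal-like cells only, 2.50 thinned, 3.002 without limits, 3.06 without seminal vesicle-like cells and 2.96 without the highest scores. That of Apoc4, 10.98, was 9.53 thinned and 8.35 in basal-like cells only. Apod changed sign from 0.23 to -0.10 thinned and to -2.06 with unnamed clusters counted.

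In macrophage-like cells the log2 ratio of Apoe, 0.41, was 0.18 with TMM factors, 0.66 at Leiden resolution 0.5 and 0.43 at resolution 2. Apod there changed sign from 0.02 to -0.21 with TMM factors, -0.39 thinned and -3.34 at resolution 0.5. Apoc1 there went from 3.46 to 2.50 at resolution 0.5. In fibroblast-like cells Apoe changed sign from 0.02 to -0.039 with TMM factors and was 0.31 at resolution 0.5, 0.21 without the highest scores and 0.13 without the shallow TripleTg cluster. Apod there, -0.66, was -0.72 with TMM factors, -0.47 thinned, -0.69 without Scrublet doublets, -0.46 without the highest scores, -0.37 at resolution 0.5, -0.61 at resolution 2 and -2.05 without the shallow TripleTg cluster. Apoc1 there went from 3.07 to 2.48 thinned, 2.25 at resolution 0.5 and 1.14, under 4-fold, without that cluster.

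Thinning moved the share of epithelial-like cells with an Apoc4 UMI from 0.142% to 0.0598% in DoubleTg and from 53.9% to 27.0% in TripleTg. Without a CPM minimum, 9.16% of genes were 4-fold higher and 4.68% 4-fold lower in epithelial-like cells. With a pseudocount of 10 CPM, 3 of the 5 genes most like Apoc4 were shared.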
